A study of Mus musculus with 12 samples.

Results

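Spliceosome and SR splicing factor genes were examined in the hippocampus of adult mice that had been exposed to ethanol as pups and later housed in enriched or standard cages. The members were the protein-coding genes whose mouse symbols name the Snrp, Lsm, Sf3a, Sf3b, U2af, Prpf and Srsf families, without Snrpn. The symbols gave 58 matches, of which 1 processed pseudogene (Snrpert) was left out, so that 57 of the 36119 genes in the table were members. All 57 averaged 1 or more across libraries and entered the test, as did 14947 genes in all. Membership follows the symbols and not the measured values, although the families were picked with earlier results of these data known.

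The study profiled hippocampal RNA of 12 adult C57BL/6 mice, 3 per group in 4 groups, all aged 70 days. Enriched ethanol mice received ethanol as pups and enriched housing from day 21, standard ethanol mice received ethanol and standard housing, enriched saline mice received saline and enriched housing, and standard saline mice received saline and standard housing. Ethanol was given under the skin at 2.5 g/kg in 0.15 M saline, as 2 injections spaced 2 hours apart on postnatal day 6 and again on day 7, and controls received an equal volume of saline. Enriched cages held 2 to 6 same-sex littermates with running wheels, toys and nesting material. The labels name the exposure prenatal, but by the protocol all injections were given to newborn pups, which is what the groups model. The sex of each mouse is not given, nor whether a group drew on separate litters, so p-values measure only the spread between these samples.

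Values are the deposited TPM, a level per transcript length and library, so that levels of different genes can be set side by side. The 8 hippocampal neuron markers were all above 0 in every group and summed to between 461 and 678 TPM per library. The choroid plexus markers summed to 7762 TPM in enriched saline replicate 2 and 428 TPM in standard ethanol replicate 1, against 32.1 to 135 TPM in the other 10 libraries. The mean log2 deviation of 8 heat shock genes from their average was 0.83 and 0.86 in enriched ethanol replicates 1 and 2, against -0.28 to 0.04 in the other 10 libraries.

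The spliceosome removes introns from pre-mRNA. It is assembled on each intron from small nuclear ribonucleoprotein particles (snRNPs), each made of a small nuclear RNA, a ring of Sm or LSM proteins and proteins specific to that particle. The U1 particle recognises the start of the intron, U2AF marks its end, the U2 particle with its SF3 proteins binds the branch site, and PRPF proteins help bring in the tri-snRNP and drive the changes that lead to catalysis. SR proteins bind enhancer sequences in exons and recruit these particles, and neurons use this machinery to produce many tissue-specific isoforms.

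None of the 57 members passed a Benjamini-Hochberg adjusted p under 0.05 in any of 7 comparisons tested with limma on log2(TPM + 0.5), with 1 fit to all 12 libraries. The members took between 0.305% and 0.342% of the summed values of each library. Their median level over all libraries was 47.7 TPM, against 19.4 TPM over all genes tested. The within-group SD had a median of 0.117 on the log2 scale over members, against 0.157 over all genes tested. That difference was not tested, and the members also stood at higher levels than most genes. In 46 of the 57 members the highest library stood less than 1.5-fold above the lowest.

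**Figure D1:**
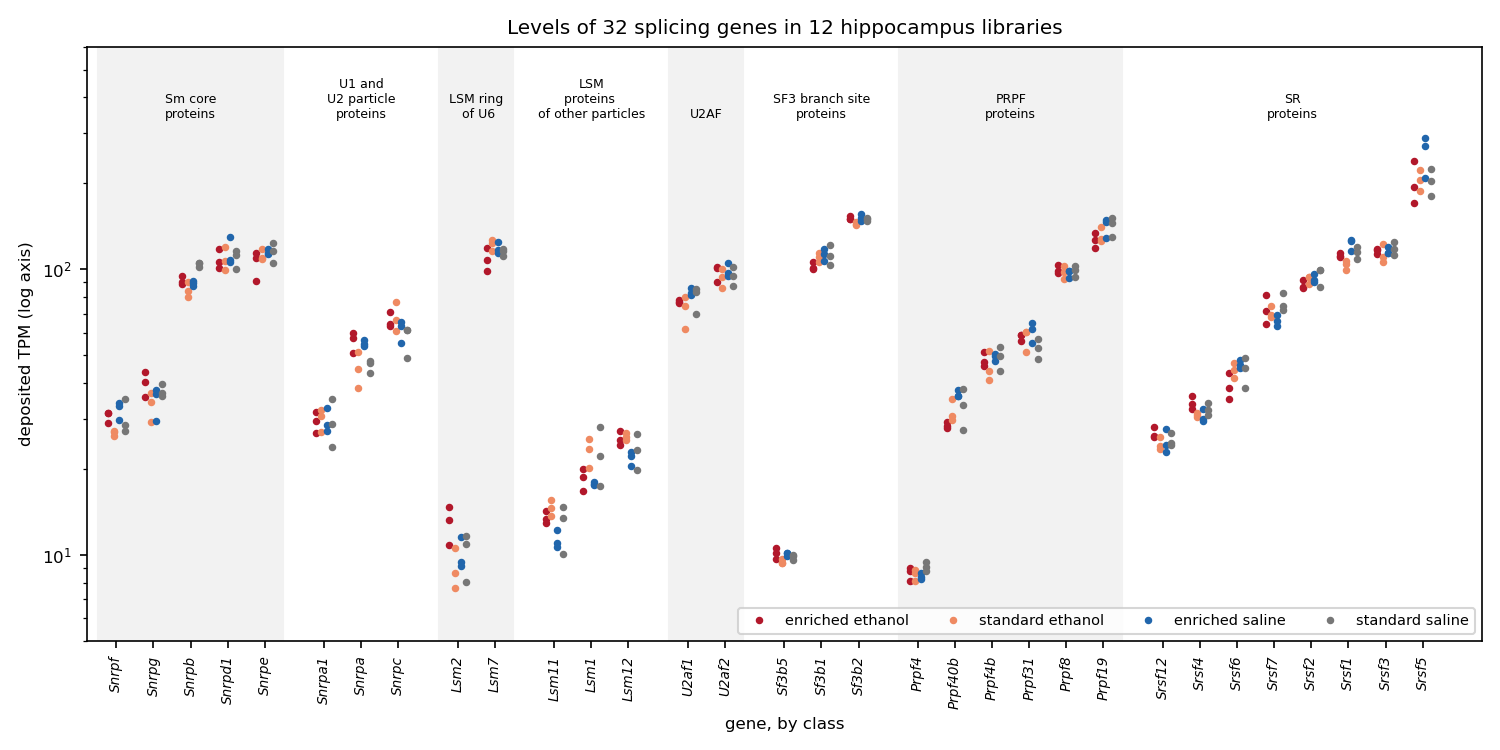
Level in TPM (log axis) of 32 members whose values are given below, in each of the 12 libraries, ordered by class and coloured by group. Srsf5 stands highest, with a mean of 216 TPM, and Prpf4 lowest, with a mean of 8.68 TPM, while the libraries of 1 gene lie close together beside these differences between genes.

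Within most classes, levels differed more between genes than between groups. Among the 7 Sm core proteins, which form the ring around the U1, U2, U4 and U5 small nuclear RNAs, means over the 12 libraries ran from 30.0 TPM for Snrpf to 112 TPM for Snrpe. The 4 U1 and U2 particle proteins ran from 29.5 TPM for Snrpa1 to 63.2 TPM for Snrpc. The 7 members of the LSM ring of U6 ran from 10.6 TPM for Lsm2 to 116 TPM for Lsm7, although the protein ring holds 1 copy of each. The 4 other LSM members ran from 13.1 TPM for Lsm11 to 24.2 TPM for Lsm12. The paired U2AF subunits stood at 78.1 TPM for U2af1 and 96.1 TPM for U2af2. Among the 9 SF3 proteins, means ran from 9.88 TPM for Sf3b5 to 149 TPM for Sf3b2, among the 13 PRPF proteins from 8.68 TPM for Prpf4 to 135 TPM for Prpf19, and among the 11 SR proteins from 25.3 TPM for Srsf12 to 216 TPM for Srsf5. At the top of this order, Srsf5 (171 to 287 TPM over the libraries) did not overlap Sf3b2 (143 to 157 TPM), whereas Sf3b2 and Prpf19 (119 to 151 TPM) overlapped. At the bottom, Prpf4 (8.09 to 9.48 TPM), Sf3b5 (9.36 to 10.6 TPM) and Lsm2 (7.70 to 14.8 TPM) overlapped one another.

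Some of these levels may be uncertain because transcripts share sequence with other genes, among which reads are divided by estimate. The share of a member's 31-base words also found in transcripts of other genes was 92.1% for Snrpf, 51.2% for Sf3b4, 41.0% for Srsf4, 29.9% for Snrpa and 25.8% for U2af1. It was under 10% for 40 of the 57 members, and it was 3.32% for Snrpb and 1.22% for Srsf1. Words were matched on either strand in GENCODE M21 transcripts, pseudogenes included. The libraries were stranded and the annotation used for the deposited values is not known, so these shares may overstate the ambiguity.

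Promoter sequences are shown for 5 members whose values recur below, to give the letters around a RefSeq start of each of these housekeeping genes. They were chosen after the values were seen, and Snrpa, Lsm2 and Snrpg are the members whose windows hold a CRE. Snrpa and Lsm2 have 2 windows each. Of these a window with a CRE was preferred for display, and then the one with most marked matches. The windows run from 250 bases before to 50 bases after the start in RefSeq, GRCm38.p6, 5′ to 3′ on the strand of the gene. In GENCODE the Lsm2 gene begins at 34981862, so its window lies wholly inside the gene. Snrpg begins there at 86371304, so most of its window, with the CRE, lies inside the gene. Capitals mark exact matches on either strand to a CRE (TGACGTCA), an ETS site (CCGGAAGT) or a GC box of SP and KLF factors (GGGCGG), and in Srsf5 a GC box overlaps an ETS match. Snrpa lies at chr7:27196222-27196521, minus strand, Lsm2 at chr17:34981880-34982179, plus strand, Snrpg at chr6:86371290-86371589, plus strand, Srsf1 at chr11:88047123-88047422, plus strand and Srsf5 at chr12:80945249-80945548, plus strand.
Snrpa: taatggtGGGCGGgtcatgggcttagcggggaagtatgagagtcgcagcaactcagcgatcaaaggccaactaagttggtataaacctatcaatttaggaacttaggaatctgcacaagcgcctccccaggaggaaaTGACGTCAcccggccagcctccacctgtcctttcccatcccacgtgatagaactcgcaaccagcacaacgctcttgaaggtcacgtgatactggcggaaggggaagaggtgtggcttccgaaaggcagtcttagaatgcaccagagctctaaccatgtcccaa
Lsm2: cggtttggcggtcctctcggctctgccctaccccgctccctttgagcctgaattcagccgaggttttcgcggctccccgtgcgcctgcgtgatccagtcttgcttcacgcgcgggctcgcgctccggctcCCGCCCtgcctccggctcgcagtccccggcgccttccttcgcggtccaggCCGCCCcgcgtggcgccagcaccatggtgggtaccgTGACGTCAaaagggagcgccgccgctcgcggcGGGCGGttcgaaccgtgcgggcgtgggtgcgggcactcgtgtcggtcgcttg
Snrpg: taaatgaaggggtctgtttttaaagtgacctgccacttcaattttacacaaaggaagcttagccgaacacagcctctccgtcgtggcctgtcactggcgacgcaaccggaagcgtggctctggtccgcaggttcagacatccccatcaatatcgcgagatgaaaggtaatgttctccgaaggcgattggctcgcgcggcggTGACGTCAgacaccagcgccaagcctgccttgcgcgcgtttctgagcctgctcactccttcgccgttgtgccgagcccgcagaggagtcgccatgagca
Srsf1: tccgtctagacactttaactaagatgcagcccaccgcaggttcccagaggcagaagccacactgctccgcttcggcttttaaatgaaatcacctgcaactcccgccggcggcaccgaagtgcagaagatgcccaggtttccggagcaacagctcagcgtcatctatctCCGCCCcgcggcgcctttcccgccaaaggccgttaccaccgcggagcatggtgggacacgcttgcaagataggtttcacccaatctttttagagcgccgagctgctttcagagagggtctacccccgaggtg
Srsf5: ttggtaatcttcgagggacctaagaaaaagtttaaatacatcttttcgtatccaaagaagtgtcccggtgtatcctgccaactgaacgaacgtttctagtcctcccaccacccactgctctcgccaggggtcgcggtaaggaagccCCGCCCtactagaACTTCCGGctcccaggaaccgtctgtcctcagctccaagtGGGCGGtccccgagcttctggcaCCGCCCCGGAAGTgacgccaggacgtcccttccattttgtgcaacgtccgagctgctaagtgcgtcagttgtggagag

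The table of promoters held 47 of the 57 members. The ETS letters were in windows of 10 of these 47 genes (21.3%), against 4.31% of all 27025 genes in the table. Those 10 genes were Snrpe, Prpf6, Srsf11, Sf3a3, Srsf4, Lsm5, Sf3a1, Srsf5, Prpf4b and Sf3b2. The GC box was in 34 (72.3%, against 38.2% of all genes) and the CRE in 3 (6.38%, against 2.03%). The TATA box (TATAAA) was in 4 (8.51%, against 15.7% of all genes), the heat shock element (GAANNTTC) in 3 (6.38%, against 9.04%), the CCAAT box (CCAAT) in 20 (42.6%, against 41.1%) and the E-box (CACGTG) in 4 (8.51%, against 8.09%). Both strands were searched in every case. All members were among the genes tested, whereas the 27025 genes include genes that were not, so the shares compare unlike sets. Among tested genes in the table of promoters, 386 held the CRE and 10636 did not. For the other motifs the shares over tested genes alone were not computed. These are matches of letters in 1 window per start and say nothing of binding.

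The first comparison, ethanol in standard cages, set standard ethanol against standard saline mice. The Sm protein Snrpb, the SR protein Srsf1, the U1-associated Prpf39 and the SF3b subunit Sf3b2 were lower in every ethanol library than in any saline library, and the Sm protein Snrpd3 was higher. These 5 members without overlap made up 8.77%, against 12.1% of all genes tested. The adjusted p passed in 0 members and in 0.0134% of all genes with limma. An unadjusted p under 0.05 was reached by 3 members, or 5.26%, 1 higher and 2 lower in ethanol mice, against 7.39% of all genes. The median log2 fold change was -0.03 over members and 0.00 over all genes, with 22 members higher and 35 lower. Leaving out standard saline replicate 3 moved the median over members to -0.08. Marker sums also differed without overlap, with 177 to 232 TPM for dentate granule cells in standard ethanol against 242 to 353 TPM in standard saline mice, and 119 to 162 TPM against 67.5 to 91.5 TPM for meningeal fibroblasts. Their part in these counts was not tested.

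In enriched cages, ethanol was compared between enriched ethanol and enriched saline mice. The SR proteins Srsf6 and Srsf1, the PRPF proteins Prpf40b and Prpf6, Sf3b1 and U2af1 were lower in every ethanol library than in any saline library. Srsf4, Lsm12 and Lsm11 were higher. These 9 members without overlap made up 15.8%, against 15.2% of all genes. By limma the adjusted p passed in 0 members and 0% of all genes. The unadjusted p was under 0.05 for 6 members, or 10.5%, 2 higher and 4 lower, against 7.76% of all genes. The median log2 fold change was 0.01 over members and -0.01 over all genes, and it was -0.0020 over members without enriched ethanol replicate 2. The 8 hippocampal neuron markers summed to 589 to 613 TPM in enriched ethanol against 504 to 569 TPM in enriched saline mice, and the 7 astrocyte markers to 2158 to 2329 TPM against 1898 to 2008 TPM. Their part, and that of the heat shock genes high in enriched ethanol replicates 1 and 2, was not tested. Averaged over both housings, 0 members and 0.0134% of all genes passed the adjusted p, and 7 members, or 12.3%, against 8.02% of all genes, reached an unadjusted p under 0.05.

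Enrichment in saline mice was compared between enriched saline and standard saline mice. The U1 protein Snrpa and the tri-snRNP protein Prpf6 were higher in every enriched library than in any standard one, and Snrpb, Srsf7, Prpf39 and Prpf4 were lower. These 6 members made up 10.5%, against 14% of all genes. The limma adjusted p passed in 0 members and in 0.0268% of all genes. Of the members, 5, or 8.77%, had an unadjusted p under 0.05, 3 higher and 2 lower with enrichment, against 10% of all genes. The median log2 fold change over members was -0.01, and it was -0.06 without standard saline replicate 3 but 0.02 without standard saline replicate 1 or replicate 2. It was 0.0033 without enriched saline replicate 3. Without overlap, enriched saline mice had lower sums of astrocyte markers (1898 to 2008 against 2045 to 2621 TPM in standard saline mice) and higher sums of the 6 endothelial (116.4 to 144 against 93.5 to 115.7 TPM), 6 meningeal fibroblast (95.4 to 166 against 67.5 to 91.5 TPM) and 6 striatal neuron markers (66.7 to 88.5 against 48.8 to 58.3 TPM). By mean log2 deviation the astrocyte ranges overlapped (-0.14 to -0.12 in enriched saline against -0.17 to 0.13 in standard saline mice). So did the fibroblast ranges (-0.12 to 0.41 against -0.71 to -0.06), whereas the endothelial and striatal ranges did not. The part of these markers was not tested.

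For enrichment in ethanol mice, enriched ethanol mice were set against standard ethanol mice. The LSM genes Lsm2, Lsm10 and Lsm4, the SR proteins Srsf4 and Srsf1, Snrpf, Sf3b2 and Sf3b5 were higher in every enriched library than in any standard one. Those lower throughout included Prpf40b, Lsm1 and Snrpd3. In all 12 members had no overlap, or 21.1%, against 12% of all genes. The limma adjusted p passed in 0 members and in 0.00669% of all genes. An unadjusted p under 0.05 was found for 7 members, or 12.3%, 5 higher and 2 lower with enrichment, against 5.57% of all genes. The median log2 fold change was 0.03 over members and -0.01 over all genes, with 34 members higher and 23 lower. Without standard ethanol replicate 1 the median over members was -0.0054, with 26 higher and 31 lower. The hippocampal neuron markers summed to 589 to 613 TPM in enriched ethanol against 461 to 570 TPM in standard ethanol mice, and the meningeal fibroblast markers to 91.9 to 117 TPM against 119 to 162 TPM. By mean log2 deviation the fibroblast ranges overlapped (-0.24 to 0.10 in enriched ethanol against 0.09 to 0.62 in standard ethanol mice). The heat shock genes stood apart in enriched ethanol replicates 1 and 2, as given above. The part of any of these in the counts was not tested. Without enriched ethanol replicate 1, 4 members reached an unadjusted p under 0.05, and without standard ethanol replicate 1 or replicate 3 it was 3.

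Averaged over exposure, enrichment passed the adjusted p in 0 members and in 0.0201% of all genes, and 4 members, or 7.02%, against 7.96% of all genes, reached an unadjusted p under 0.05. The interaction, which is the ethanol difference in enriched cages minus that in standard cages, passed in 0 members and in 0.0134% of all genes. An unadjusted p under 0.05 was reached there by 4 members, or 7.02%, all with a positive interaction, against 7.41% of all genes. Ethanol in standard cages and enrichment in saline mice share the standard saline libraries, and most other pairs of comparisons share groups in this way. The ethanol comparisons in standard and in enriched cages have no library in common. The same holds for the enrichment comparisons in saline and in ethanol mice.

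**Figure D2:**
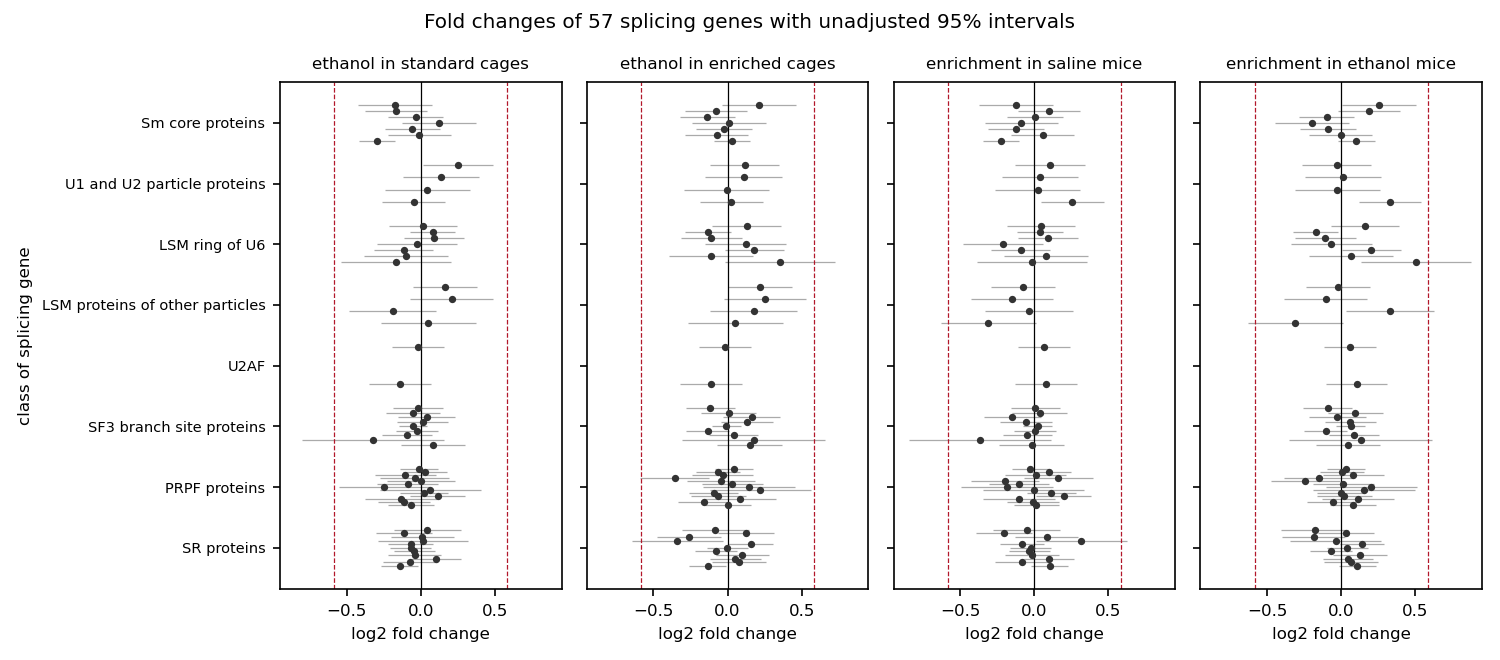
Log2 fold changes of the 57 members by class in the 4 comparisons of 2 groups, each with its unadjusted 95% interval, and dashed lines at 1.5-fold. Of the 228 differences, 216 had an interval that lay wholly within the dashed lines, and Sf3a2 crossed them in every comparison.

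The intervals show how large a difference these 3 mice a group leave room for. The unadjusted 95% interval lay within 1.5-fold in either direction for 56 of 57 members for ethanol in standard cages, 53 for ethanol in enriched cages, 54 for enrichment in saline mice and 53 for enrichment in ethanol mice. Over all genes tested the shares were 71.3%, 70.5%, 69.4% and 72.0%. Sf3a2, a subunit of the SF3a complex of the U2 particle and the member with the largest within-group SD (0.31 log2), was outside in each of the 4. Lsm2 was outside in both comparisons that use enriched ethanol mice, Srsf5 in both that use enriched saline mice and Lsm1 in both enrichment comparisons. Prpf40b was outside for ethanol in enriched cages and Lsm10 for enrichment in ethanol mice.

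Snrpb, which encodes the SmB and SmB′ proteins of the Sm ring, gave the smallest p of the members for ethanol in standard cages, for enrichment in saline mice and for the interaction. The gene lies at chr2:130171414-130179403 (GRCm38). Its level was 88.6, 94.6 and 90.1 in enriched ethanol mice, 80.3, 83.9 and 90.6 in standard ethanol mice, 89.5, 90.9 and 87.3 in enriched saline mice and 105, 105 and 102 in standard saline mice (TPM). The 3 standard saline libraries stood above all 9 others, which overlapped one another. Means were 91.1 ± 3.13 in enriched ethanol, 84.9 ± 5.23 in standard ethanol, 89.2 ± 1.80 in enriched saline and 104 ± 1.95 TPM in standard saline mice (SD, n = 3 each). For ethanol in standard cages the log2 fold change was -0.30 (SE 0.06, unadjusted 95% interval -0.42 to -0.17), with a limma adjusted p of 0.269. Enrichment in saline mice gave -0.22 (SE 0.06, unadjusted 95% interval -0.35 to -0.10), with a limma adjusted p of 0.278, and the interaction gave 0.33 (SE 0.08, unadjusted 95% interval 0.15 to 0.50), with a limma adjusted p of 0.509. None of these passed, and all rest on the same standard saline libraries. Without both libraries high in choroid plexus markers they were -0.26 and -0.24, and 0.30 for the interaction. In the 3 standard saline libraries the 8 dentate granule cell markers summed to 242 to 353 TPM, against 177 to 252 TPM in the other 9, with none of the markers at 0 throughout. Likewise the 6 meningeal fibroblast markers summed to 67.5 to 91.5 TPM there, against 91.9 to 166 TPM in the other 9. By mean log2 deviation, however, these fibroblast ranges overlapped (-0.71 to -0.06 against -0.24 to 0.62). The part of either cell type in the Snrpb values was not tested, and in bulk tissue fewer cells of a type and less RNA per cell cannot be told apart.

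**Figure D3:**
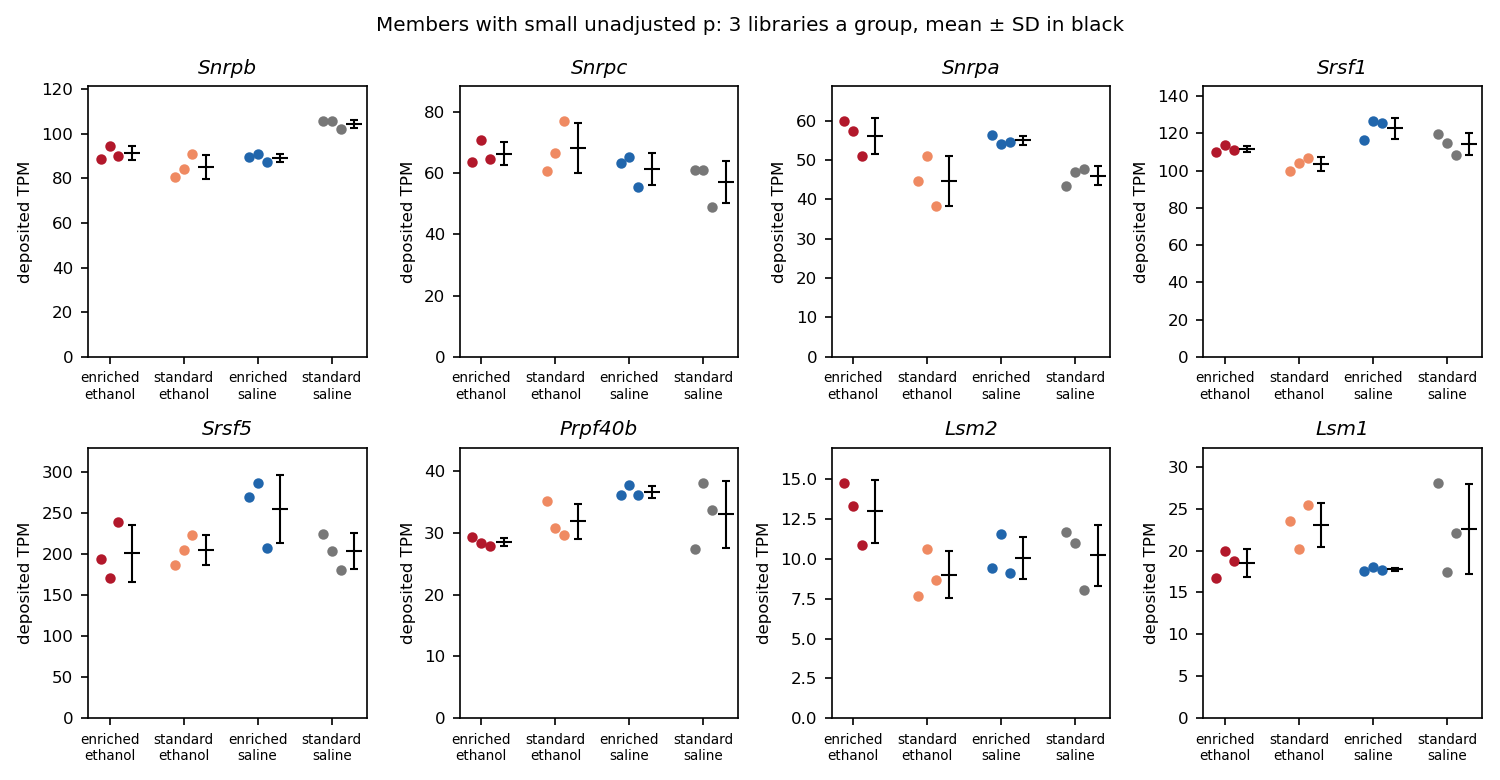
Level in TPM of 8 members in each library by group, with the group mean and SD (n = 3). Snrpb is highest in the 3 standard saline libraries, Snrpa has higher means in the enriched groups, and Srsf1 is lower in ethanol than in saline mice within each housing.

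As a class the Sm proteins had small medians. For ethanol in standard cages 6 of the 7 were lower, with a median log2 fold change of -0.06, and for enrichment in saline mice 4 of 7 were lower, with a median of -0.09. Snrpg encodes SmG and had 43.9, 35.8 and 40.4 in enriched ethanol mice, 29.2, 36.8 and 34.3 in standard ethanol mice, 37.8, 36.5 and 29.4 in enriched saline mice and 37.1, 36.0 and 39.7 in standard saline mice (TPM). The groups compared overlapped, and its interaction of 0.38 (SE 0.16, unadjusted 95% interval 0.03 to 0.74) had a limma adjusted p of 0.646. Snrpd1, which encodes SmD1, had 101, 118 and 106 in enriched ethanol mice, 99.6, 107 and 119.7 in standard ethanol mice, 106, 129 and 108 in enriched saline mice and 113, 116 and 100.01 in standard saline mice (TPM), with every group overlapping the others. Snrpe, which encodes SmE, had 91.3, 114 and 109 in enriched ethanol mice, 109, 109 and 118 in standard ethanol mice, 113, 118 and 114 in enriched saline mice and 116, 124 and 105 in standard saline mice (TPM). Snrpf, which encodes SmF and shares most of its words with other genes, had 31.5, 28.9 and 31.4 in enriched ethanol mice, 26.1, 26.9 and 27.2 in standard ethanol mice, 29.7, 33.2 and 34.0 in enriched saline mice and 35.2, 28.5 and 27.1 in standard saline mice (TPM). The groups compared overlapped for both, apart from Snrpf between enriched and standard ethanol mice.

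Snrpa encodes U1-A, the U1 protein that binds a stem-loop of U1 small nuclear RNA. Located at chr7:27187005-27196271, it had 59.9, 57.5 and 51.1 in enriched ethanol mice, 44.7, 51.2 and 38.4 in standard ethanol mice, 56.4, 54.1 and 54.7 in enriched saline mice and 43.3, 46.9 and 47.8 in standard saline mice (TPM). Enriched saline mice stood above standard saline mice without overlap, whereas enriched ethanol replicate 3 lay at about the level of standard ethanol replicate 2. Means were 56.1 ± 4.55 in enriched ethanol against 44.7 ± 6.37 in standard ethanol mice, and 55.0 ± 1.19 in enriched saline against 46.0 ± 2.38 TPM in standard saline mice (SD, n = 3 each). Enrichment gave a log2 fold change of 0.33 (SE 0.10, unadjusted 95% interval 0.12 to 0.54) in ethanol mice, with a limma adjusted p of 0.861, and of 0.26 (SE 0.10, unadjusted 95% interval 0.05 to 0.47) in saline mice, with a limma adjusted p of 0.427. Without both libraries high in choroid plexus markers these were 0.33 and 0.27. Averaged over exposure it was 0.29 (SE 0.07, unadjusted 95% interval 0.14 to 0.44), with a limma adjusted p of 0.374, which is the smallest of any member there and did not pass. Of its words, 29.9% are shared with other genes.

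Snrpc encodes U1-C, which contacts the duplex of U1 with the start of the intron. It had 63.6, 70.7 and 64.6 in enriched ethanol mice, 60.8, 66.4 and 76.8 in standard ethanol mice, 63.2, 65.3 and 55.4 in enriched saline mice and 61.1, 61.1 and 49.0 in standard saline mice (TPM). The groups compared overlapped, and the log2 fold change for ethanol in standard cages was 0.25 (SE 0.11, unadjusted 95% interval 0.02 to 0.49), with a limma adjusted p of 0.644. Snrpa1, a protein of the U2 particle, had 31.7, 26.8 and 29.5 in enriched ethanol mice, 26.9, 32.3 and 30.6 in standard ethanol mice, 27.3, 32.6 and 28.5 in enriched saline mice and 28.7, 35.2 and 23.9 in standard saline mice (TPM), again with overlap between all groups. All 4 U1 and U2 particle proteins had positive values for enrichment in saline mice, with a median log2 fold change of 0.07, and 2 of the 4 did in ethanol mice.

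Lsm2 belongs to the LSM ring that caps the end of U6 small nuclear RNA. It had 14.8, 13.3 and 10.9 in enriched ethanol mice, 7.70, 10.6 and 8.68 in standard ethanol mice, 9.43, 11.5 and 9.12 in enriched saline mice and 11.6, 11.0 and 8.03 in standard saline mice (TPM). The enriched ethanol libraries lay above the standard ethanol ones, closely at their nearest edge, and the saline groups overlapped. Enrichment in ethanol mice gave a log2 fold change of 0.51 (SE 0.17, unadjusted 95% interval 0.14 to 0.88), with a limma adjusted p of 0.861, the largest in size among all 228 member differences. The 2 highest Lsm2 values were those of enriched ethanol replicates 1 and 2, the libraries with high heat shock genes. Without replicate 1 or replicate 2 of that group the log2 fold change was 0.41 or 0.48, and without both libraries high in choroid plexus markers it was also 0.41. Lsm7, the most abundant gene of the same ring, had 98.6, 118 and 108 in enriched ethanol mice, 116, 123 and 127 in standard ethanol mice, 114, 125 and 117 in enriched saline mice and 116, 118 and 112 in standard saline mice (TPM). Its enriched ethanol libraries overlapped the others at the top, and enrichment in ethanol mice gave -0.17 (SE 0.07), with a limma adjusted p of 0.883. Its interaction was -0.21 (SE 0.10), with a limma adjusted p of 0.681. The ring had no shared direction, since 4 of its 7 genes were higher and 3 lower with enrichment in each exposure.

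Lsm1 takes the place of Lsm8 in the cytoplasmic ring that promotes mRNA decapping. It had 16.7, 20.0 and 18.7 in enriched ethanol mice, 23.5, 20.2 and 25.4 in standard ethanol mice, 17.6, 17.98 and 17.7 in enriched saline mice and 28.1, 17.4 and 22.1 in standard saline mice (TPM). The 6 enriched libraries were closely grouped, while the standard saline libraries ran from within that group to the highest value of all 12. Enrichment averaged over exposure gave -0.31 (SE 0.10, unadjusted 95% interval -0.54 to -0.08), with a limma adjusted p of 0.551. The 8 myelinating oligodendrocyte markers, none of them at 0 throughout, summed to 3772 to 5615.5 TPM in enriched ethanol, 5206 to 5522 TPM in standard ethanol, 3157 to 3889.9 TPM in enriched saline and 3182 to 5438 TPM in standard saline mice. Their part in the Lsm1 values was not tested.

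Lsm11 is a component of the U7 particle, which processes the ends of histone mRNAs. It had 13.4, 14.3 and 13.0 in enriched ethanol mice, 14.6, 15.6 and 13.7 in standard ethanol mice, 11.0, 10.7 and 12.2 in enriched saline mice and 10.1, 14.7 and 13.4 in standard saline mice (TPM). Enriched ethanol mice lay above enriched saline mice without overlap, and ethanol averaged over housing gave 0.23 (SE 0.09), with a limma adjusted p of 0.559. Lsm12, a further LSM domain gene, had 27.2, 24.3 and 25.2 in enriched ethanol mice, 26.7, 25.2 and 25.9 in standard ethanol mice, 20.4, 22.3 and 23.0 in enriched saline mice and 23.4, 19.9 and 26.5 in standard saline mice (TPM). It too was higher in enriched ethanol than in enriched saline mice in every library. Its log2 fold change was 0.22 (SE 0.10) for ethanol in enriched cages, with a limma adjusted p of 0.644, 0.16 (SE 0.10) in standard cages, with a limma adjusted p of 0.759, and 0.19 (SE 0.07) averaged over housing, with a limma adjusted p of 0.537. All 4 of these other LSM genes were higher for ethanol in enriched cages (median 0.20) and all 4 were lower for enrichment in saline mice (median -0.11), and both differences use the enriched saline libraries.

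The U2AF subunits bind the end of the intron, U2af2 at the polypyrimidine tract and U2af1 at the AG. U2af1 had 77.1, 78.4 and 76.1 in enriched ethanol mice, 62.1, 74.4 and 80.1 in standard ethanol mice, 86.2, 81.5 and 82.9 in enriched saline mice and 85.5, 83.0 and 69.7 in standard saline mice (TPM). Standard ethanol replicate 1 and standard saline replicate 3 were low for their groups. U2af2 had 90.1, 101 and 102 in enriched ethanol mice, 85.8, 94.3 and 100.5 in standard ethanol mice, 105, 96.8 and 94.5 in enriched saline mice and 94.5, 102 and 87.4 in standard saline mice (TPM). With ethanol U2af1 had log2 fold changes of -0.11 in enriched and -0.14 in standard cages, while U2af2 had -0.02 in each. Both subunits were higher with enrichment in each exposure, with medians of 0.08 in ethanol and 0.07 in saline mice. Neither reached an unadjusted p under 0.05 in any of these 4 comparisons.

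The SF3 proteins hold the U2 particle at the branch site. Sf3b1 encodes the subunit that clamps the branch site helix and had 106, 100.3 and 101 in enriched ethanol mice, 111, 114 and 106 in standard ethanol mice, 113, 118 and 107 in enriched saline mice and 122, 112 and 104 in standard saline mice (TPM). Ethanol libraries lay below saline ones in enriched cages without overlap and overlapped in standard cages. Sf3b2, another SF3b subunit and the member with the smallest within-group SD (0.03 log2), had 149.8, 154 and 149.6 in enriched ethanol mice, 146, 143 and 144 in standard ethanol mice, 152, 148 and 157 in enriched saline mice and 148, 152 and 149.8 in standard saline mice (TPM). Its standard ethanol libraries were the lowest of the 12, and the log2 fold change for ethanol in standard cages was -0.05 (SE 0.04, unadjusted 95% interval -0.15 to 0.05). Sf3b5, the smallest in level of the class, had 9.69, 10.6 and 10.2 in enriched ethanol mice, 9.36, 9.66 and 9.38 in standard ethanol mice, 9.91, 10.2 and 10.2 in enriched saline mice and 9.98, 9.91 and 9.60 in standard saline mice (TPM). In no comparison did any of the 9 SF3 proteins reach an unadjusted p under 0.05.

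Prpf8 is the scaffold around the catalytic centre and Prpf4b a kinase that acts on the tri-snRNP. Prpf8 had 104, 98.8 and 97.4 in enriched ethanol mice, 103, 97.7 and 92.8 in standard ethanol mice, 99.0, 98.6 and 93.0 in enriched saline mice and 94.3, 99.3 and 103 in standard saline mice (TPM), and all groups overlapped. Prpf4b had 47.4, 51.4 and 45.8 in enriched ethanol mice, 44.2, 40.9 and 51.9 in standard ethanol mice, 50.5, 47.7 and 49.6 in enriched saline mice and 49.9, 53.3 and 44.1 in standard saline mice (TPM), with the same overlap. Prpf19, a ubiquitin ligase that joins the active spliceosome, had 119, 134 and 126 in enriched ethanol mice, 125, 128 and 140.2 in standard ethanol mice, 147, 128 and 148 in enriched saline mice and 129, 151 and 145 in standard saline mice (TPM), with overlap between the groups compared. Prpf4, a protein of the U4 and U6 particle, had 8.80, 8.99 and 8.12 in enriched ethanol mice, 8.09, 8.85 and 8.68 in standard ethanol mice, 8.66, 8.24 and 8.40 in enriched saline mice and 9.48, 9.09 and 8.76 in standard saline mice (TPM), and enriched saline mice lay below standard saline mice by a small margin.

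Prpf40b is a mammalian relative of yeast Prp40, a U1-associated protein that helps pair the ends of the intron. It had 29.2, 28.3 and 27.9 in enriched ethanol mice, 35.0, 30.8 and 29.7 in standard ethanol mice, 36.1, 37.7 and 36.0 in enriched saline mice and 27.3, 38.0 and 33.6 in standard saline mice (TPM). Enriched ethanol libraries lay below those of both groups they are compared with, and 1 standard saline library was lower still. Ethanol in enriched cages gave -0.36 (SE 0.11, unadjusted 95% interval -0.59 to -0.12), with a limma adjusted p of 0.576, the smallest of the members there. The interaction was -0.31 (SE 0.15), with a limma adjusted p of 0.687. Prpf31 binds the U4 part of the tri-snRNP and had 58.9, 56.2 and 58.9 in enriched ethanol mice, 51.3, 60.2 and 60.3 in standard ethanol mice, 61.9, 64.9 and 55.3 in enriched saline mice and 53.1, 56.8 and 48.6 in standard saline mice (TPM). Its enriched and standard saline libraries overlapped narrowly, with 0.20 (SE 0.09) for enrichment in saline mice and a limma adjusted p of 0.480.

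Srsf1, the founding SR protein, binds exonic enhancers and promotes use of the splice sites beside them. It lies at chr11:88047373-88053755 and had 110.1, 114 and 111 in enriched ethanol mice, 99.7, 104 and 107 in standard ethanol mice, 116, 127 and 126 in enriched saline mice and 119.6, 115 and 108 in standard saline mice (TPM). Ethanol mice lay below saline mice in each housing without overlap, though the enriched ethanol and standard saline libraries overlapped. Means were 112 ± 1.84 in enriched ethanol against 123 ± 5.62 in enriched saline mice, and 104 ± 3.67 in standard ethanol against 114 ± 5.69 TPM in standard saline mice (SD, n = 3 each). The log2 fold change for ethanol was -0.14 (SE 0.06) in enriched cages, with a limma adjusted p of 0.625, and -0.14 (SE 0.06) in standard cages, with a limma adjusted p of 0.603. Averaged over housing it was -0.14 (SE 0.04, unadjusted 95% interval -0.23 to -0.05), with a limma adjusted p of 0.454, the smallest of the members in that comparison. For enrichment averaged over exposure Srsf1 gave 0.11 (SE 0.04), with a limma adjusted p of 0.594.

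Srsf5, the most abundant member, had 195, 171 and 239 in enriched ethanol mice, 188, 205 and 224 in standard ethanol mice, 270.0, 287 and 208 in enriched saline mice and 225, 204 and 181 in standard saline mice (TPM). Enriched saline replicates 1 and 2 were the highest of all libraries and replicate 3 lay among the others. Its log2 fold change was -0.34 (SE 0.14, unadjusted 95% interval -0.65 to -0.03) for ethanol in enriched cages, with a limma adjusted p of 0.619, and 0.32 (SE 0.14, unadjusted 95% interval 0.01 to 0.62) for enrichment in saline mice, with a limma adjusted p of 0.487. Both differences use enriched saline replicate 2, the library highest in choroid plexus markers, whose part was not tested. Srsf6, an SR protein with a pair of RNA recognition motifs, had 38.4, 35.3 and 43.4 in enriched ethanol mice, 41.6, 44.6 and 47.0 in standard ethanol mice, 48.3, 45.3 and 46.4 in enriched saline mice and 45.2, 49.1 and 38.4 in standard saline mice (TPM). Enriched ethanol mice lay below enriched saline mice without overlap, with -0.26 (SE 0.10) and a limma adjusted p of 0.594. Srsf4, a close relative of both, had 36.1, 33.9 and 32.4 in enriched ethanol mice, 31.3, 30.5 and 30.8 in standard ethanol mice, 29.9, 32.3 and 29.5 in enriched saline mice and 31.03, 34.1 and 32.2 in standard saline mice (TPM). It ran the other way, with 0.16 (SE 0.07) for ethanol in enriched cages and a limma adjusted p of 0.630, and its level is among those with many shared words.

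Srsf7 and Srsf3, which also link splicing to mRNA export, differed in where their spread lay. Srsf7 had 71.5, 81.5 and 64.2 in enriched ethanol mice, 68.1, 74.4 and 69.0 in standard ethanol mice, 63.6, 69.0 and 66.0 in enriched saline mice and 82.9, 72.0 and 74.6 in standard saline mice (TPM). Enriched saline mice lay below standard saline mice without overlap, and enrichment in saline mice gave -0.21 (SE 0.09), with a limma adjusted p of 0.473. Srsf3 had 118, 117 and 113 in enriched ethanol mice, 106, 111 and 123 in standard ethanol mice, 114, 120.1 and 115 in enriched saline mice and 125, 118 and 112 in standard saline mice (TPM), with all groups overlapping. Srsf2, which binds exonic enhancers, had 91.8, 85.8 and 86.4 in enriched ethanol mice, 89.1, 93.9 and 94.1 in standard ethanol mice, 90.6, 91.7 and 96.3 in enriched saline mice and 99.8, 99.4 and 86.9 in standard saline mice (TPM), and 2 standard saline libraries were the highest. Srsf12, the lowest in level of the SR proteins, had 26.2, 28.0 and 25.9 in enriched ethanol mice, 24.0, 23.4 and 25.9 in standard ethanol mice, 27.5, 24.3 and 23.0 in enriched saline mice and 24.3, 26.6 and 24.6 in standard saline mice (TPM), with overlap between the groups compared. As a class the 11 SR proteins had median log2 fold changes of -0.003 and -0.04 for ethanol in enriched and standard cages, and of 0.04 and -0.03 for enrichment in ethanol and saline mice.

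**Figure D4:**
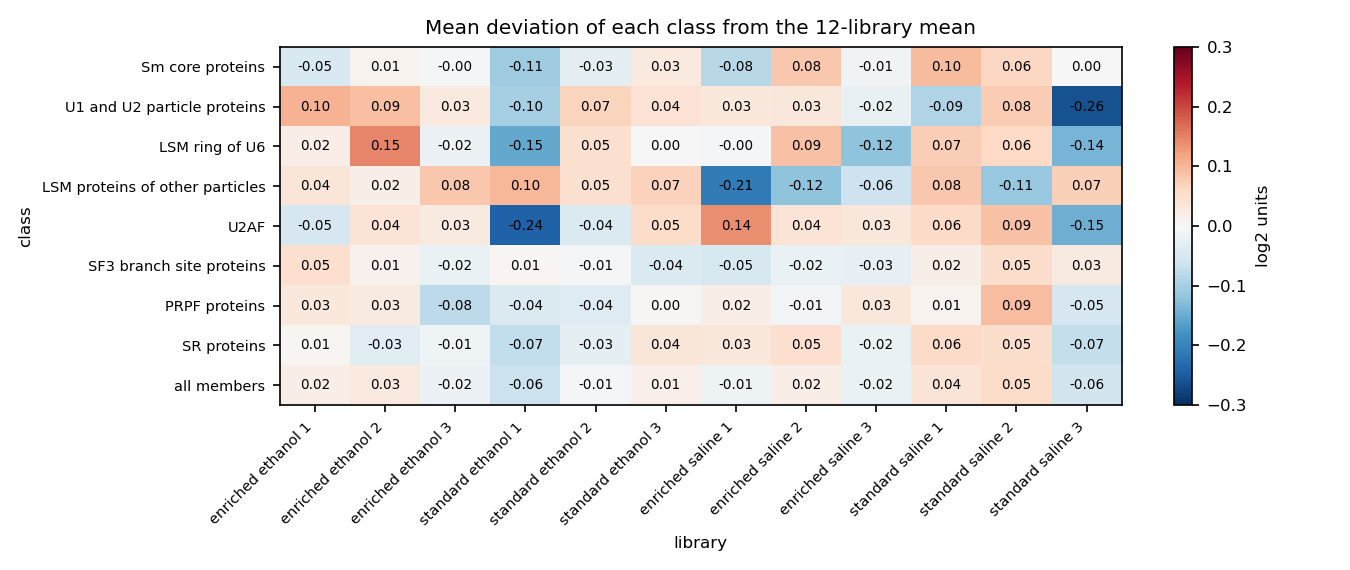
Mean log2 deviation of each class from its average over the 12 libraries, one column per library with enriched ethanol mice first. The mean over all 57 members ran from -0.06 in standard ethanol replicate 1 and standard saline replicate 3 to 0.05 in standard saline replicate 2.

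Across libraries the members as a whole deviated from their average by -0.06 to 0.05 on the log2 scale, and libraries of 1 group differed as much as the groups did. The mean deviations were 0.02, 0.03 and -0.02 in enriched ethanol, -0.06, -0.01 and 0.01 in standard ethanol, -0.01, 0.02 and -0.02 in enriched saline and 0.04, 0.05 and -0.06 in standard saline mice. Standard ethanol replicate 1 held the lowest value of 14 of the 57 members and standard saline replicate 3 that of 9. Standard saline replicate 2 held the highest value of 11 members, and it was also the library with the highest granule cell markers.

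The wider splicing machinery was read from 7 lists: other snRNP proteins, spliceosome helicases with the Prp19 complex, the SMN complex, SR kinases with SR-related factors, the exon junction complex, hnRNP proteins and neuronal splicing regulators. Of their 164 genes 160 were tested, and none passed the limma adjusted p in any comparison. For ethanol in enriched cages 7 were higher and 4 lower at an unadjusted p under 0.05 (6.88%), and in standard cages 1 was higher and 5 lower (3.75%). For enrichment in ethanol mice 16 were higher and 0 lower (10%), and in saline mice 7 were higher and 5 lower (7.50%). The shares of all genes are those given above for the same comparisons. Averaged over exposure, enrichment gave 21 higher and 2 lower (14.4%, against 7.96% of all genes). Over all genes at that unadjusted p, 619 were higher and 571 lower averaged over exposure, and 435 higher and 398 lower in ethanol mice. The list counts were not repeated without single libraries or under the other alternatives.

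Among these lists, 21 of 23 other snRNP proteins and 22 of 28 SR kinases and related factors were lower for ethanol in standard cages, whatever their p. Their medians were -0.09 and -0.07, while 50.7% of all genes were higher. These were the most one-sided lists there. The 23 snRNP proteins had mean log2 deviations of -0.09, -0.08 and -0.06 in standard ethanol replicates 1, 2 and 3. In standard saline replicates these were 0.03, 0.11 and -0.05, so that replicate 3 lay close to the ethanol libraries. For the 28 SR-related factors they were -0.04, -0.08 and 0.01 in standard ethanol and 0.03, 0.01 and 0.04 in standard saline mice. Over all 7 lists 57 genes were higher and 103 lower, with hnRNP proteins the other way (17 higher, 9 lower) and neuronal regulators split (15 higher, 14 lower). In enriched cages 14 of the 23 snRNP proteins and 21 of the 28 SR-related factors were higher with ethanol. Their medians were 0.02 and 0.06, while 48.1% of all genes were higher. The 7 lists did not share a direction there, with 91 genes higher and 69 lower in all. Of the SMN complex 12 of 15 were lower, and of the helicases with the Prp19 complex 19 of 26. Of the exon junction complex 11 of 13 were higher, of the hnRNP proteins 15 of 26 and of the neuronal regulators 20 of 29. The 28 SR-related factors had mean log2 deviations of 0.12, 0.05 and -0.06 in enriched ethanol replicates 1, 2 and 3. In enriched saline replicates these were -0.03, -0.08 and 0.02. Enriched ethanol replicates 1 and 2 are the libraries with high heat shock genes, whose part was not tested. Sf1, the protein that first binds the branch site, was among the lower ones in standard cages, at -0.22 (SE 0.08, limma adjusted p = 0.546) on the log2 scale. Hnrnpm, an hnRNP protein that can repress or enhance exon use, had 0.28 (SE 0.07, limma adjusted p = 0.284) for enrichment in saline mice. Neither passed.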

How the data were processed

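Hippocampal total RNA was depleted of ribosomal RNA and made into stranded libraries, per the labels' protocols. The submitters' processing notes name CASAVA, kallisto, sleuth and the build mm10, without versions, and the sources used here do not give the annotation release. The authors deposited 1 TPM table for 36119 genes. Its column sums, 973187 to 1024536, show a further factor per library, and the deposited values were therefore handled as a signal proportional to TPM, although the design had assumed plain TPM. The test is the same for both. TPM keeps no counts, so the depth and counting error are unknown. All columns were matched to samples by name, and groups come from the sample labels.

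Genes averaging at least 1 (14947) were tested on log2(TPM + 0.5), a scale that understates changes of weakly expressed genes. The model (limma 3.58.1, R 4.3.3) had 1 mean for each group over the 12 libraries and a mean-variance trend (8 residual and 3.82 prior degrees of freedom). Two-sided p-values were adjusted by Benjamini-Hochberg across the tested genes, and the fit was tested on simulated data. Intervals are unadjusted. Symbols and positions come from GENCODE M21 on GRCm38, which has 35879 of the identifiers. Members and lists were chosen with earlier results of these data known. Per-library values are given for the 2 members with the smallest p in each direction of each comparison, fixed members of each class and the highest and lowest member of each class; 1 gene under this rule is not reported here. Alternatives were other pseudocounts, filters and scalings, a fit without the trend, a replicate block and leaving out libraries.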

Additional observations from a re-analysis of the deposited data

How the results depend on the processing

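No member passed the limma adjusted p in any comparison under any of the 21 alternatives, and the smallest adjusted p of a member in any of them was 0.183, for Snrpa and enrichment averaged over exposure without standard ethanol replicate 2. The 28 differences made up of the 2 smallest p in each direction of each comparison, over 16 genes, kept their direction in all of them. Leaving out each library in turn moved the median log2 fold change over members for ethanol in standard cages between -0.075 and -0.0057, and for enrichment in saline mice between -0.057 and 0.024, with the lowest of both without standard saline replicate 3. The median changed sign for enrichment in saline mice when scaled to the sum over protein-coding genes (0.022, with 34 members higher and 23 lower, against 27 and 30 as reported). That scaling also moved the median over all genes from 0.0028 to 0.030, with 58.1% higher against 50.9% as reported. The median over members also changed sign for enrichment averaged over exposure without standard ethanol replicate 1 (-0.0013) and for ethanol averaged over housing without both libraries high in choroid plexus markers (0.0046). The count of members at an unadjusted p under 0.05 moved with single libraries. It ran from 1 to 5 for ethanol in standard cages (lowest without standard ethanol replicate 2, highest without standard saline replicate 3), from 2 to 9 in enriched cages (lowest without enriched ethanol replicate 1) and from 5 to 11 averaged over housing (highest without standard saline replicate 3). It ran from 2 to 8 for enrichment in saline mice (lowest without enriched saline replicate 1, highest without standard saline replicate 1, and 3 without enriched ethanol replicate 1 or standard saline replicate 3) and from 3 to 8 in ethanol mice. Averaged over exposure it ran from 3 to 9 (highest without enriched ethanol replicate 2, and 7 without enriched saline replicate 3 or standard saline replicate 1), and for the interaction from 2 to 7 (lowest without enriched ethanol replicate 1 or enriched saline replicate 3, highest without enriched ethanol replicate 3). Without both libraries high in choroid plexus markers, an alternative chosen after seeing the data, it was 3 for enrichment in ethanol mice and 2 for the interaction. Without the mean-variance trend it was 1 and 3 for ethanol in standard and enriched cages, and 2 and 3 for enrichment in saline and ethanol mice. Over all genes, the number passing the adjusted p ran over the alternatives from 0 to 7 for ethanol in standard cages (2 as reported), 0 to 15 in enriched cages (0) and 0 to 10 averaged over housing (2). For enrichment it ran from 1 to 20 in saline mice (4), 0 to 21 in ethanol mice (1) and 0 to 11 averaged over exposure (3), and for the interaction from 0 to 12 (2). The highest came without enriched ethanol replicate 3 or, for enrichment in saline mice and ethanol in standard cages, without standard saline replicate 2, and in standard cages also with no filter. The cause was not tested.

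Same-numbered libraries of different groups had correlations of their deviations between -0.15 and 0.06, against -0.09 to 0.12 for differently numbered ones. These values gave no sign of pairing by replicate number, but with 3 libraries a group they cannot show that the samples were unpaired. With the replicate block 0 members passed, and the members at an unadjusted p under 0.05 numbered 5 for ethanol in enriched cages (6 without the block), 4 and 6 for enrichment in saline and ethanol mice (5 and 7 without it), 5 for enrichment averaged over exposure (4 without it) and the same in the other 3 comparisons. With 3 mice a group, a member's difference between groups has an unadjusted 95% interval that reaches 0.205 to either side in the median member and 0.482 in the widest (log2), so the smallest difference that could be detected depends on the member.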

Other observations

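The 3 members with a CRE in their promoter window, Snrpa, Lsm2 and Snrpg, were among the 5 members higher at an unadjusted p under 0.05 for enrichment in ethanol mice. This was noticed after the values were seen, and no link between the letters and the values was tested. The 5 members became 2 without enriched ethanol replicate 1 and 1 without standard ethanol replicate 1. Over all tested genes in the promoter table, the 386 with a CRE were higher in 49.2% of cases and the 10636 without one in 48.4%.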
